A study of Mus musculus with 16 samples.

Results

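Lactobacilli in stool of mice, wild type (WT) or with the Msc gene knocked out (KO), were followed by 16S rRNA gene amplicon sequencing of variable regions V3 and V4. The members are all amplicon sequence variants (ASVs, distinct denoised sequences) whose family is given as Lactobacillaceae, 5 of the 1330 ASVs in the table, and they held 8.41% of its 948231 reads. By the deposited species names, 2 ASVs are Lactobacillus_murinus, 1 is Lactobacillus_johnsonii and 2 are Lactobacillus_intestinalis, and 0 lack a species name. The 16 libraries form 4 groups of 4: WT healthy and KO healthy, both sampled at time point 0, and WT DSS and KO DSS, both sampled with colitis at time point 1. The labels write the colitis condition as DDS-induced_col, and the series title gives it as DSS-induced colitis. The knocked-out gene, Msc, codes for the transcription factor musculin, and no other genetic change is named in the labels. Strain, age, sex, cage and the dose of dextran sulfate sodium (DSS, a polymer that injures the colon lining) are not given in the sources used here. Colitis was sampled only at the later time point, so these cannot be told apart, and neither can genotype and cage. The labels repeat the same replicate names in the healthy and the DSS group of a genotype. Nothing says whether these stand for separate or repeated animals, so p-values measure the spread between these libraries. The main tests of DSS against healthy treat the libraries as separate.

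Lactobacilli are rod-shaped bacteria that ferment sugars to lactic acid and live in large numbers in the forestomach and intestine of mice. L. murinus, now often placed in the genus Ligilactobacillus, is a common rodent resident known for turning tryptophan into indole compounds that act on the host's aryl hydrocarbon receptor. L. johnsonii carries bile salt hydrolases and can produce hydrogen peroxide, and L. intestinalis is a further species first described from rodent intestine. A bacterial genome usually carries several copies of the 16S rRNA gene, so 1 strain can give more than 1 ASV.

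The libraries held 49253 to 70577 reads, so that 3 reads, the upper limit that a count of 0 allows, are 0.00425% to 0.00609% of a library. Those limits and the intervals below cover only counting error, because reads of amplified DNA are not separate molecules. WT DSS replicate 1 stood apart, with 844 ASVs, of which 711 (17.1% of its reads) occurred in no other library. The other libraries held 172 to 280 ASVs. Replicates of a group differed far beyond counting error, with chi-square values of 29.6 to 129 times their degrees of freedom for each pair. Shares are percent of all reads of a library, given as mean ± SD over 4 libraries.

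The main pattern was that the family fell under DSS in both genotypes, while the species that was left differed by genotype. In WT mice with DSS the remaining lactobacilli were mostly L. murinus, 92.7% ± 5.37 of Lactobacillaceae reads (n = 4). In KO mice with DSS they were almost wholly L. johnsonii, 99.8% ± 0.476 (n = 4). L. intestinalis had reads in all 8 healthy libraries and in 0 of the 8 DSS libraries.

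**Figure D1:**
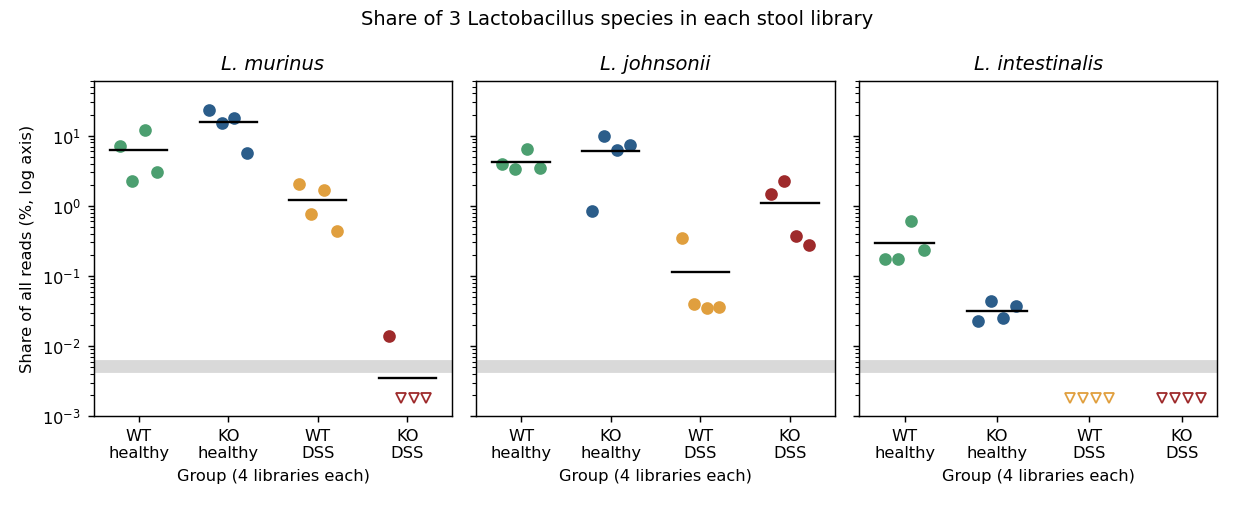
Share of all reads (percent, log axis) of each species in the 16 libraries, with dots for libraries with reads, open triangles below the grey band for libraries without a read, and a line at the group mean. The grey band is the share that 3 reads make up. L. murinus lies between 0.433% and 2.05% in WT DSS libraries and has reads in 1 of 4 KO DSS libraries.

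At the level of the family, Lactobacillaceae made up 11.2%, 5.75%, 19.2% and 6.71% of reads in the WT healthy libraries (replicates 0 to 3). In the KO healthy libraries the family stood at 24.2%, 24.9%, 24.0% and 13.1%. Under DSS it stood at 2.40%, 0.811%, 1.69% and 0.469% in WT and at 1.49%, 2.29%, 0.377% and 0.276% in KO mice. All 8 healthy libraries lay above all 8 DSS libraries, while the genotypes overlapped within each condition. Lactobacillaceae was the family with the second-highest mean share in KO healthy mice and among 239 family labels it ranked 13 in WT DSS mice, against 10 in KO DSS mice.

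The family's fall under DSS passed the threshold in WT mice (edgeR log2 fold change -2.93 ± 0.64 SE, adjusted p = 0.00323) and in KO mice (-4.89 ± 0.70 SE, adjusted p = 4.17e-05). Of the 26 families tested, 7.69% were called lower under DSS in WT and 23.1% in KO mice. KO and WT mice with DSS had family means of 1.11% ± 0.961 and 1.34% ± 0.871, and this difference did not pass (edgeR log2 fold change -0.35 ± 0.60 SE, adjusted p = 0.672, 11.5% of families called). Its sign was not stable, at 0.0553 without a filter on low counts and 0.0312 without KO DSS replicate 3. In the fit without a filter the median of all 239 family labels was -4.45 there, against 0.00428 in the main fit. In healthy mice the family stood at 21.5% ± 5.66 in KO and 10.7% ± 6.14 in WT, which did not pass (log2 fold change 1.60 ± 0.61 SE, edgeR adjusted p = 0.065, 11.5% of families called). Without WT healthy replicate 2, the WT library richest in lactobacilli, the value was 2.19 and passed (edgeR adjusted p = 0.0302), and it also passed with DESeq2 (1.71), without a filter (1.41) and with only the healthy groups in the fit (1.47). The DSS effect in KO minus that in WT mice, the interaction, was -1.95 ± 0.85 (SE, edgeR adjusted p = 0.129, 15.4% of families called). It passed without WT healthy replicate 2 (-2.53) or KO DSS replicate 1 (-2.64).

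L. murinus was the member with the most reads. Its 2 ASVs, called asv4 and asv14 by their rank in total reads, held 43405 and 8954 reads. In WT healthy mice the species took 7.12%, 2.27%, 12.1% and 3.07% of reads, and in KO healthy mice 23.3%, 14.9%, 17.8% and 5.57%. Under DSS it took 2.05%, 0.771%, 1.65% and 0.433% in WT mice. Among KO DSS libraries, replicate 0 had 10 reads (0.0142%, 95% Wilson interval 0.00770% to 0.0261%) and the other 3 had none.

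In healthy mice the mean of L. murinus was 15.4% ± 7.43 in KO and 6.14% ± 4.50 in WT mice, 2.51 times as high, with overlapping groups. This difference did not pass (edgeR log2 fold change 2.13 ± 0.96 SE, unadjusted p = 0.0424, adjusted p = 0.214). L. murinus was the species label with the second-highest mean share of 547 in KO healthy mice and ranked 4 in WT healthy and 17 in WT DSS mice. In WT mice DSS libraries lay below all healthy ones, at a mean of 1.23% ± 0.751, 5.01-fold lower, but the difference did not pass the threshold either (log2 fold change -1.81 ± 0.95 SE, edgeR adjusted p = 0.169). Both differences passed in 1 of 16 other settings, the fit without a filter (1.64 and -2.03). In that fit the median log2 fold change of all 547 species labels was 0 in healthy mice and 4.49 for DSS in WT mice. The main fit gave medians of 0 and -0.26.

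In KO mice with DSS L. murinus nearly vanished from the reads. Its mean was 0.00354% ± 0.00708, which is below the share of 3 reads and rests on the 10 reads of 1 library. Against KO healthy mice that is 4351-fold lower, with a 95% counting interval of 2366 to 9074 (edgeR log2 fold change -12.37 ± 1.51 SE, adjusted p = 2.58e-05). Against WT mice with DSS it is 346-fold lower, with a counting interval of 188 to 722 (log2 fold change -8.43 ± 1.32 SE, edgeR adjusted p = 0.000799). Without KO DSS replicate 0 no read remained, and L. murinus was then at least 2980-fold lower than in KO healthy and at least 237-fold lower than in WT DSS mice. The fitted values depend on the prior count where a group is this close to 0. The groups did not overlap in either comparison.

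The interaction for L. murinus, the genotype difference with colitis minus the one without it, was -10.56 ± 1.61 (SE, edgeR adjusted p = 0.000409). It passed in all 23 other settings, with values of -14.85 to -9.60 and adjusted p-values up to 0.00237. Of the 111 species labels tested, 3.60% had an interaction past the threshold in the lower direction and 8.11% in either. KO DSS replicate 0 set the size of the fitted value, which was -14.85 without it, while no single library decided the call.

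**Figure D2:**
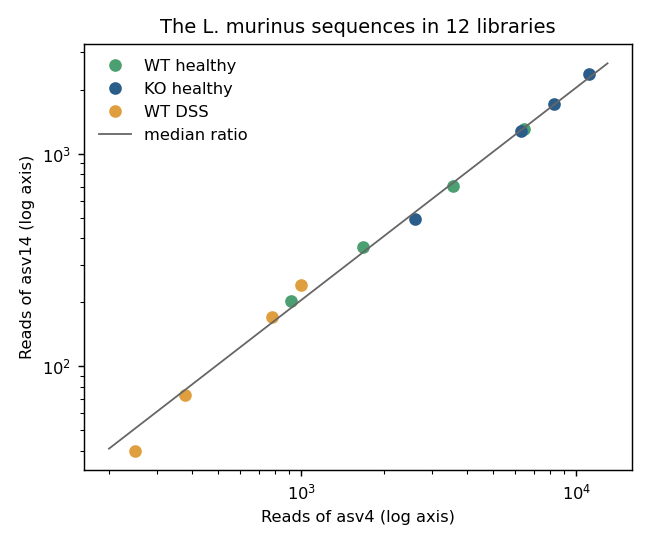
Reads of asv14 against reads of asv4, both L. murinus, in the 12 libraries that hold both (log axes, coloured by group). The line is the median ratio of 4.89, and the points lie along it from the WT DSS libraries at the bottom to the KO healthy libraries at the top.

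The L. murinus ASVs moved together. The ratio of asv4 to asv14 reads was 4.54 to 5.02 in the WT healthy, 4.73 to 5.26 in the KO healthy and 4.14 to 6.20 in the WT DSS libraries, with a median of 4.89 over the 12 libraries that held both. As a share of L. murinus reads, asv14 took 13.9% to 19.5%, with the lowest and the highest value in WT DSS libraries. WT DSS replicate 3 had 40 of 288 (95% Wilson interval 10.4% to 18.4%) and WT DSS replicate 0 had 241 of 1238 (17.4% to 21.8%). KO DSS replicate 0 had 10 reads of asv4 and 0 of asv14, and 0 of 10 allows a share of up to 30%. Both ASVs come from the same libraries, so their shared pattern is a description with no test.

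Tested as single sequences among 308 ASVs, asv4 (-7.94) and asv14 (-10.12) were lower in KO than in WT mice with DSS (edgeR adjusted p = 0.00167 and 0.000885). The share of all tested ASVs called lower there was 5.84%. Since asv14 had no read in KO DSS libraries, its difference is at least 44.5-fold against WT DSS and at least 532-fold against KO healthy mice. DSS against healthy in KO mice gave -11.75 for asv4 and -13.86 for asv14 (edgeR adjusted p = 0.000212 and 7.7e-05, 20.5% of ASVs called lower). The interactions were -9.64 and -11.83 (edgeR adjusted p = 0.00318 and 0.000458, 2.60% of ASVs called lower). In healthy mice neither L. murinus ASV passed (1.70 and 1.71, edgeR adjusted p = 0.388 and 0.237, 7.47% of ASVs called), nor did either pass for DSS in WT mice (-2.11 and -2.03, adjusted p = 0.166 and 0.0941). The taxonomy confidence was 0.826 for asv4 and 0.711 for asv14, the lowest of the 5 members.

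L. johnsonii, a single ASV (asv8, 26548 reads, taxonomy confidence 0.886) that ranked 18 of 547 species labels in KO DSS and 49 in WT DSS mice, was the only member with reads in all 16 libraries. It took 3.91%, 3.30%, 6.49% and 3.40% of reads in WT healthy mice and 0.8295%, 9.86%, 6.19% and 7.45% in KO healthy mice. KO healthy replicate 0, the library with the least L. johnsonii among healthy ones, was also the one with the most L. murinus. Under DSS it took 0.349%, 0.0392%, 0.0348% and 0.0361% in WT and 1.47%, 2.29%, 0.377% and 0.276% in KO mice. WT DSS replicate 0 stood above the other WT DSS libraries and above the lowest KO DSS library.

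DSS libraries of WT mice held 37.3-fold less L. johnsonii than healthy ones, 0.115% ± 0.156 against 4.28% ± 1.502, with no overlap (edgeR log2 fold change -4.79 ± 1.001 SE, adjusted p = 0.00237). The WT DSS mean was 0.0367% without WT DSS replicate 0, when the log2 fold change was -6.18. In KO mice the fall was 5.51-fold, from 6.08% ± 3.82 to 1.10% ± 0.959 (-2.84 ± 0.91 SE, edgeR adjusted p = 0.0244), and the groups overlapped through KO healthy replicate 0. That call was lost without KO healthy replicate 1 (-2.45) or 2 (-2.69), without KO DSS replicate 2 (-1.97) or 3 (-1.95), and with only the KO groups in the fit (-2.31, edgeR adjusted p = 0.0774). A replicate block, taken up in the closing section, lost it too, and it passed in 10 of 16 other settings. Without KO DSS replicate 1 the value was -3.43 and passed.

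KO mice with DSS had 9.63 times the mean share of L. johnsonii of WT mice with DSS (edgeR log2 fold change 3.18 ± 0.93 SE, adjusted p = 0.025). The call was lost without WT DSS replicate 1 (2.97), 2 (2.89) or 3 (2.82), without KO DSS replicate 1 (2.59), and with only the DSS groups in the fit (3.24, edgeR adjusted p = 0.055). It was also lost with a replicate block, taken up in the closing section, and passed in 10 of 16 other settings. Without KO DSS replicate 1 the KO DSS mean was 0.709%. Leaving out WT DSS replicate 0 moved the value most, to 4.79 (edgeR adjusted p = 0.00474), with a WT DSS mean of 0.0367%. In healthy mice L. johnsonii did not pass (KO against WT 1.23 ± 0.86 SE, edgeR adjusted p = 0.432). Its interaction was 1.95 ± 1.22 (SE, edgeR adjusted p = 0.399), and 3.899 without WT DSS replicate 0 (adjusted p = 0.0498). The values for asv8 in the fit of single ASVs had the same signs, at 3.55 for KO against WT under DSS (edgeR adjusted p = 0.0199, 8.77% of ASVs called higher), -5.15 for DSS in WT (adjusted p = 0.00254, 13.3% called lower) and -2.49 for DSS in KO mice (adjusted p = 0.0481). The last of these calls was lost in 13 of 16 other settings, among them leaving out any one KO library except KO DSS replicate 1 (-2.71 to -2.09).

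L. intestinalis was the rarest of the named species and held 802 reads in asv99 and 4 reads in asv1157. It took 0.172%, 0.173%, 0.608% and 0.237% of reads in WT healthy mice and 0.0225%, 0.0433%, 0.0249% and 0.0378% in KO healthy mice. The lowest WT library was thus above the highest KO library. No DSS library had a read, which allows a share of up to 0.00425% to 0.00541% there. The 4 reads of asv1157 were all in WT healthy replicate 1, so this ASV did not pass the filter on low counts and was not tested.

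Against healthy mice, L. intestinalis under DSS was at least 60.04-fold lower in WT and at least 6.50-fold lower in KO mice. It passed the filter on low counts through the healthy libraries alone, so a difference was built into its selection and no p-value is given for DSS against healthy. The WT healthy mean of 0.297% ± 0.209 was 0.194% without WT healthy replicate 2. In healthy mice the KO mean was 0.0321% ± 0.0101, 9.26-fold lower than in WT. This did not pass in the main fit (log2 fold change -2.48 ± 0.68 SE, edgeR unadjusted p = 0.00491, adjusted p = 0.0909). It passed in 5 of 17 other settings, among them DESeq2 (-2.58, adjusted p = 0.00437), limma on centred log-ratios (-2.23, adjusted p = 0.00818), total counts as the scale (-3.20, adjusted p = 0.0234) and only the healthy groups in the fit (-2.61, adjusted p = 0.0264). No fold is given for KO against WT under DSS or for the interaction, since both DSS groups had no read.

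**Figure D3:**
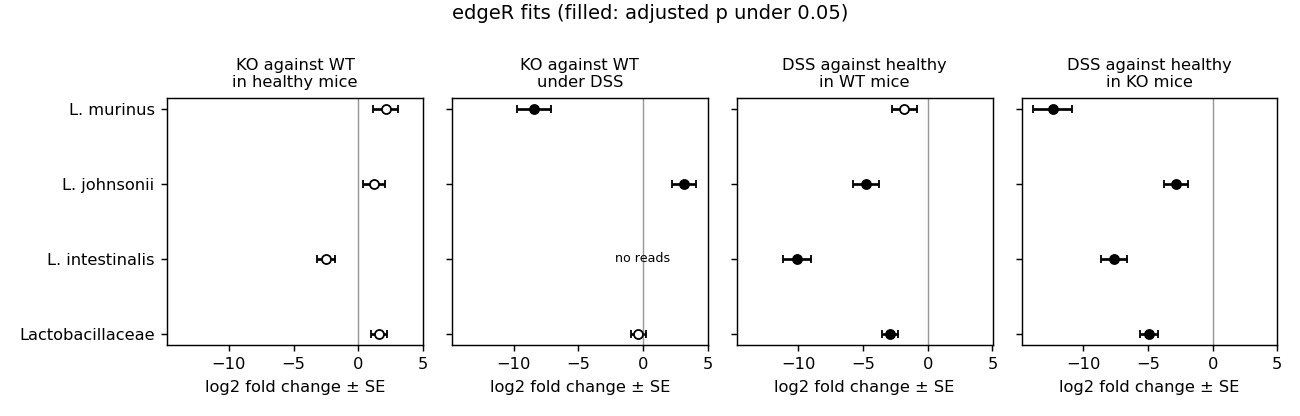
Log2 fold changes with their standard errors (x axis) from edgeR for the 3 species labels and the family in 4 comparisons, with filled points where the adjusted p was under 0.05. Values where a group has no or almost no read depend on the prior count. L. intestinalis passed the filter through healthy libraries alone, so the fill of its points for DSS against healthy is not a test result. Under DSS L. murinus (-8.43) and L. johnsonii (3.18) lie on opposite sides of 0 while the family (-0.35) lies near it.

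Counted over the species labels, 0 of the 3 Lactobacillus species passed for KO against WT in healthy mice, where edgeR called 3.60% of the 111 labels. At an unadjusted p under 0.05 the count was 2 of 3, against 21.6% of labels, and 1 of 3 passed with DESeq2 (10.8% of labels called) or limma (7.21% called). For KO against WT under DSS 1 species was lower and 1 higher, against 12.6% and 9.91% of labels called in these directions. The groups did not overlap for 1 of 3 species there and for 19.8% of labels. For DSS against healthy, L. intestinalis is left out of the counts for the reason given above. Of L. murinus and L. johnsonii, 1 of 2 fell with DSS in WT mice, with 13.5% of labels called lower, and 2 of 2 in KO mice, with 15.3% called lower. The DSS libraries lay below all healthy ones for 2 of 2 in WT (24.3% of labels) and 1 of 2 in KO mice (14.4% of labels). KO against WT in healthy mice had 1 of 3 species without overlap, against 21.6% of labels. With total counts as the scale, calls over all labels split into 2 higher and 8 lower in healthy mice (2 and 2 with TMM), 12 and 7 for KO against WT under DSS (11 and 14), 9 and 19 for DSS in WT mice (12 and 15) and 6 and 2 for the interaction (5 and 4). The comparisons share groups and are not independent of each other.

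**Figure D4:**
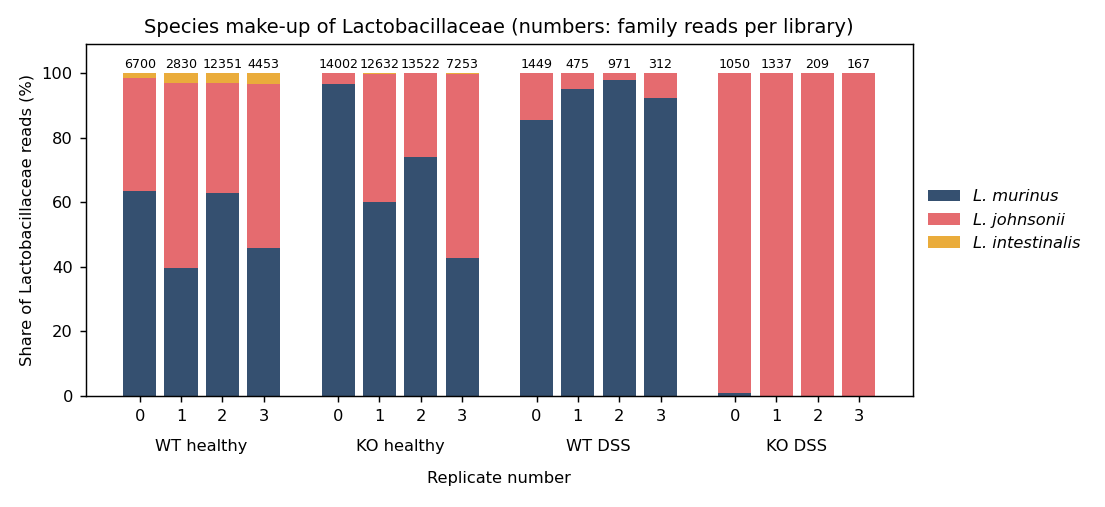
Share of Lactobacillaceae reads (percent) of each species in every library, as stacked bars by group and replicate number, with the family's reads above each bar. L. johnsonii fills 99.05% to 100% of the bars in KO DSS and 2.06% to 14.6% in WT DSS libraries.

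A comparison inside the family does not depend on how other bacteria changed, because the species share the same library total. In WT healthy mice L. murinus took 53.0% ± 12.2 of the family's reads, L. johnsonii 44.2% ± 11.7 and L. intestinalis 2.81% ± 0.875. In KO healthy mice these were 68.3% ± 22.7, 31.5% ± 22.7 and 0.165% ± 0.0905. The make-up of KO healthy libraries varied widely, from 42.6% to 96.5% L. murinus, although 3 of the 4 had almost the same family total, 24.0% to 24.9% of reads. L. murinus took 85.4% to 97.9% of the family in WT DSS and 0% to 0.952% in KO DSS libraries. The libraries with DSS rest on fewer family reads, 312 to 1449 in WT and 167 to 1337 in KO mice.

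**Figure D5:**
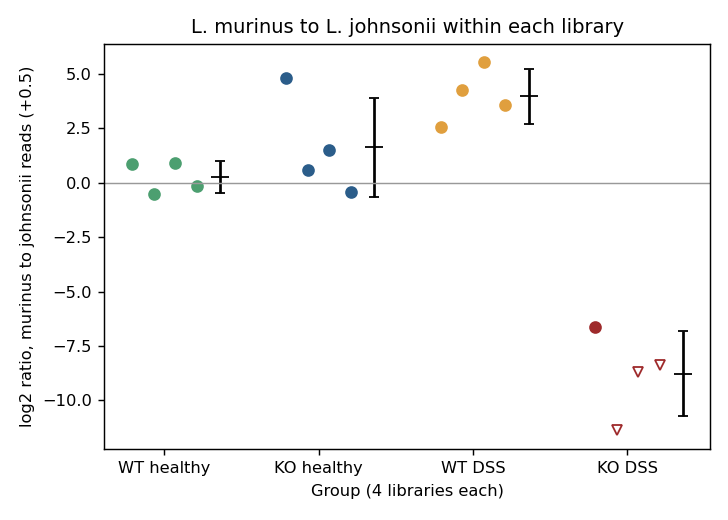
Log2 ratio of L. murinus to L. johnsonii reads, each plus 0.5 (y axis), in every library by group, with mean and SD beside the points. Open triangles are libraries without a read of L. murinus, whose values depend on the added 0.5. WT DSS values run from 2.55 to 5.54 and KO DSS values from -11.39 to -6.63.

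Reads of L. murinus per read of L. johnsonii were 1.82, 0.689, 1.86 and 0.902 in WT healthy and 28.1, 1.52, 2.87 and 0.747 in KO healthy libraries. In WT DSS libraries they were 5.87, 19.7, 47.6 and 12, all above the WT healthy ones. In KO DSS replicate 0 the ratio was 0.00962, and the other KO DSS libraries had no L. murinus read against 1337, 209 and 167 reads of L. johnsonii. On the log2 scale with 0.5 added to each count, KO minus WT was -12.76 under DSS (exact permutation p = 0.0286, adjusted p = 0.0357). DSS minus healthy was 3.71 in WT and -10.41 in KO mice, both with the same p-values by exact permutation. The genotypes did not differ beyond their spread in healthy mice (1.36, exact permutation p = 0.343, adjusted p = 0.367). The interaction was -14.12 (exact permutation p = 0.0049, adjusted p = 0.0357). Its relabelling shuffled genotypes within each condition. That p therefore stands against no genotype difference in either condition, and not against an equal difference in both. Tests were two-sided, 0.0286 is the smallest p that 4 libraries against 4 can give, and adjustment was over 15 tests. Since KO DSS libraries had 0 reads in the numerator, the sizes depend on the added count (-9.97 for KO minus WT under DSS with 5 added).

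Relative to the other species, L. intestinalis was also lower in KO than in WT mice without colitis. Its log2 ratio to L. murinus averaged -8.74 ± 1.23 in KO and -4.27 ± 0.783 in WT healthy mice, a difference of -4.47 (exact permutation p = 0.0286, adjusted p = 0.0357). Its log2 ratio to L. johnsonii averaged -7.11 ± 1.31 and -4.00 ± 0.475, a difference of -3.11 (exact permutation p = 0.0286, adjusted p = 0.0357). The second of these was lost on leaving out any one WT healthy library (-3.28 for replicate 0, -3.19 for 1, -2.92 for 2 and -3.06 for 3), each at an adjusted p of 0.0714 by exact permutation. This second difference still passed in 6 of 10 other settings. Among these was leaving out any one KO healthy library, which leaves as few relabellings. The KO healthy values (-7.91 to -5.15) lay below all WT healthy ones (-4.50 to -3.42), and KO healthy replicate 0 (-5.15) was nearest to them.

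Ordered by mean share, the groups ran KO healthy, WT healthy, WT DSS, KO DSS for L. murinus and KO healthy, WT healthy, KO DSS, WT DSS for L. johnsonii. For L. murinus only the healthy groups overlapped as neighbours. For L. johnsonii the healthy groups overlapped and so did the DSS groups. L. intestinalis ran WT healthy above KO healthy, with no overlap, and both DSS groups at 0. The same orders held when shares were taken of Firmicutes reads only, the phylum of the family. On that base L. murinus took 10.2% ± 6.99 in WT healthy, 28.2% ± 14.3 in KO healthy and 2.63% ± 1.57 in WT DSS mice, and L. johnsonii 0.253% ± 0.346 in WT DSS against 2.12% ± 1.77 in KO DSS mice.

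Other lactic acid bacteria and bifidobacteria were sparse under the genus names looked for. Of 14 further genera looked for, among them Streptococcus, Lactococcus and Bifidobacterium, 13 had no read under that name. Only Enterococcus, a genus of gut cocci in the same order as Lactobacillus, had any. The list also held Ligilactobacillus, Limosilactobacillus and Lacticaseibacillus. The deposited names keep L. murinus under Lactobacillus, so a lack of reads under Ligilactobacillus follows from the naming and shows no absence. Enterococcus took 0.0119% ± 0.0086 of reads in WT healthy, 0.0101% ± 0.0126 in KO healthy, 0.0372% ± 0.0264 in WT DSS but 0.256% ± 0.425 in KO DSS mice. KO DSS replicate 0, the KO DSS library that still had L. murinus reads, held 630 of the 705 Enterococcus reads of its group. DSS against healthy in KO mice passed for Enterococcus (edgeR log2 fold change 4.49 ± 1.60 SE, adjusted p = 0.0431) but fell to 1.67 without that library, which did not pass (adjusted p = 0.397). That call passed in 9 of 17 other settings and was also lost without KO healthy replicate 1 (4.09), 2 (4.09) or 3 (4.51), with limma (4.03), without a filter (4.60) and with only the KO groups in the fit (5.02). A replicate block, taken up in the closing section, lost it as well. Without KO healthy replicate 0 the value was 5.80, and without KO DSS replicate 2 or 3 it was 5.37 or 5.39. The other 4 comparisons did not pass.

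Among the 65 other genus labels tested, those most like each species over the 16 libraries were named by the Spearman rank correlation of centred log-ratio values. For L. murinus they were Marvinbryantia (0.93), the Eubacterium xylanophilum group (0.81) and the Lachnospiraceae genus A2 (0.80), and the least alike was Harryflintia (-0.73). Marvinbryantia took 0.124% ± 0.0801 in WT healthy, 0.164% ± 0.058 in KO healthy, 0.00678% ± 0.00784 in WT DSS and no read in KO DSS mice, in an order of groups like that of L. murinus. For L. johnsonii they were Adlercreutzia (0.86), the xylanophilum group (0.78) and Roseburia (0.71), and the least alike was Clostridia_UCG-014 (-0.83). Adlercreutzia, a genus known for turning plant isoflavones into equol, took 0.339% ± 0.199 in WT healthy, 0.552% ± 0.299 in KO healthy, 0.0384% ± 0.0384 in WT DSS against 0.0804% ± 0.0366 in KO DSS mice. For L. intestinalis they were A2 (0.86), Lachnospiraceae_UCG-001 (0.80) and Roseburia (0.77), and the least alike was Escherichia-Shigella (-0.86). These are descriptions over 16 libraries that share groups, a fixed total per library and many zeros under DSS, and the genera were picked by that correlation.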

How the data were processed

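DNA was extracted from stool with the DNeasy PowerSoil Pro kit, amplified with primers 341F and 805R and read on a MiSeq, per the labels. The submitters' processing notes name cutadapt. The denoiser, the classifier and its database are not given in the sources used here. Raw read counts per ASV and library make up the deposited feature table, and the authors' deposited taxonomy table gives each assignment's confidence as a fraction. Short reads of V3 and V4 can leave species names uncertain, and the ASV sequences were not used here.

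The members and lists were chosen with earlier results of these data known. Reads were summed to 547 species labels (genus label and species text) and 239 families. Placeholder genus names such as uncultured went to the next named rank. Features that reached 5 reads in 4 or more libraries (308 ASVs, 111 species labels, 26 families) went into edgeR 4.0.16 (R 4.3.3), all 16 libraries in 1 quasi-likelihood fit, TMM factors, library sizes from all reads, Benjamini-Hochberg adjusted p under 0.05. SE is the log2 fold change divided by the root of F. Ratios of species used two-sided exact permutation over 70 relabellings, or 4900 within conditions for the interaction, and 8 of the 15 involve L. intestinalis under DSS, where it had no read, and are not reported. Where a group had no read, folds are mean shares over the share of 3 reads per library.

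Named ASVs averaged 0.1% or more of reads in some group, and other taxa were the 3 genera most and the 1 least like each species and the fixed genera with reads. Alternatives were RLE factors (poscounts), total counts, DESeq2 1.42.0, limma 3.58.1 on centred log-ratios (pseudocount 0.5), no filter, 20 reads, only the groups compared, a replicate block, a taxonomy confidence of at least 0.9, each library left out, pseudocounts of 1 and 5, and other denominators. The edgeR and permutation steps were tested on simulated data. Python 3.11.15, numpy 2.4.6, pandas 2.3.3, scipy 1.17.1 and matplotlib 3.10.9 were used.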

Additional observations from a re-analysis of the deposited data

Results flagged for a closer look

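In 9 of 39 groups of 4 checked by Dixon's test, 1 library lay apart from the other 3. These are 6 separate places, since asv4, asv8 and asv99 repeat the value of their species, and the checks are not independent. Chance alone would mark about 1 in 20 separate groups of normally distributed values, which shares with zeros are not. A group with reads in only 1 library, as L. murinus in KO DSS mice, is marked whatever its count. L. murinus in KO DSS replicate 0 (0.0142%, with asv4 at 0.0142%) lay above 3 libraries without a read, and Enterococcus in the same library stood at 0.893%. L. johnsonii in WT DSS replicate 0 stood at 0.349% (asv8 at 0.349%), and L. intestinalis in WT healthy replicate 2 at 0.608% (asv99 at 0.608%). Lactobacillaceae in KO healthy replicate 3 took 13.1%, below the other KO healthy libraries. The log2 ratio of L. intestinalis to L. johnsonii in KO healthy replicate 0 was -5.15, above the rest of that group.

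The genotype difference was not the same under DSS as in healthy mice for L. murinus, by the interaction in edgeR: -10.56 for the species, -9.64 for asv4 and -11.83 for asv14. The log2 ratio of L. murinus to L. johnsonii was marked too, with an interaction of -14.12. Its exact permutation test stands against no genotype difference in either condition, and so does not test whether the differences are equal. Time point and condition cannot be told apart in these differences.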

How the results depend on the processing

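For L. murinus the comparisons of KO DSS mice with WT DSS or KO healthy mice and the interaction passed in every other setting run, as did DSS in WT mice for L. johnsonii and the family's fall under DSS in either genotype. Without a filter, L. murinus passed in healthy mice (1.64) and for DSS in WT mice (-2.03), the L. johnsonii interaction passed (2.70), the family passed in healthy mice (1.41), and its KO against WT value under DSS turned to 0.0553. The median of all 547 species labels in that fit was 4.49 for DSS in WT mice. It was -4.49 for KO against WT under DSS and for the interaction. The main test gave medians of -0.26, 0.01 and 0.37 in these comparisons. L. intestinalis in healthy mice passed with total counts (-3.20), DESeq2 (-2.58), limma (-2.23), a filter of 20 reads (-3.01) and only the groups compared (-2.61). The family passed in healthy mice with DESeq2 (1.71) and only the groups compared (1.47). With only the groups compared L. johnsonii did not pass for DSS in KO mice (-2.31) or for KO against WT under DSS (3.24). Leaving out each library gave ranges of 1.26 to 2.19 for the family in healthy mice, -1.17 to 0.0312 for it under DSS, -2.64 to -1.56 for its interaction, -3.43 to -1.95 for L. johnsonii under DSS in KO mice, 2.59 to 4.79 for KO against WT under DSS and 1.36 to 3.899 for its interaction. Enterococcus turned sign for KO against WT in healthy mice with total counts (-0.23), limma (-0.0331), no filter (-0.0563) and over the libraries left out (-0.997 to 0.82), and without KO DSS replicate 0 under DSS (-0.17 to 3.19) and in the interaction (-0.49 to 3.65). At a confidence of at least 0.9 no ASV of L. murinus or L. johnsonii was left, so that setting gave values among the Lactobacillus species for L. intestinalis only. Total counts as the scale moved the median of all 111 species labels from 0 to -0.66 in healthy mice and from -0.26 to -0.71 for DSS in WT mice, from 0.01 to 0.28 for KO against WT under DSS, from -0.20 to 0.07 for DSS in KO mice and from 0.37 to 1.41 for the interaction, and no Lactobacillus species changed sign with it. Over the settings run on all species labels, calls in healthy mice numbered 2 (confidence) to 12 (DESeq2) against 4 in the main test, and those of the interaction 1 (confidence) to 20 (DESeq2) against 9. Confidence left 11 calls for KO against WT under DSS. Over all ASVs, calls in healthy mice numbered 8 (replicate block) to 49 (limma) against 23, and those of the interaction 6 (replicate block) to 47 (limma) against 18.

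Libraries of the same replicate number did not deviate together (correlations of -0.17 to 0.09 over tested ASVs, own number best in 1 of 4 for each comparison). Only between healthy and DSS libraries of a genotype could a number stand for the same animal. There the correlations were -0.11 to 0.081 in WT and -0.035 to 0.080 in KO mice. The numbers were therefore not used as pairs in the main tests. Such correlations cannot show whether the same animals were sampled again. With a replicate block L. intestinalis did not pass for DSS in KO mice (-7.60), nor did L. johnsonii (-3.23) or Enterococcus (4.30), nor L. johnsonii for KO against WT under DSS (3.17), while the family passed in healthy mice (1.66) and in the interaction (-2.32). Over all species labels the block gave 18 calls for DSS in KO mice (34 without it), 7 for KO against WT under DSS (25) and 5 for the interaction (9). For the ratio of L. murinus to L. johnsonii the paired sign flips gave 3.71 in WT and -10.41 in KO mice, at an exact p of 0.125, the smallest that 4 pairs allow.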
